A study of Mus musculus with 32 samples.

Results

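The amino acid stress response that runs through the transcription factor Atf4 was followed as 10 genes, Atf4, Ddit3, Trib3, Chac1, Sesn2, Asns, Phgdh, Psat1, Shmt2 and Mthfd2, among the 20560 genes of the deposited table. They were picked by symbol as textbook members of this response, and each symbol matched 1 gene. The 32 libraries came from 3T3-L1, a preadipocyte line of the mouse whose cells become fat-like under hormones. At each of days 0, 3, 7 and 11 of differentiation there were 4 libraries with a scramble hairpin (shCtrl), 2 with shRNA 1 and 2 with shRNA 2. Both shRNAs target Zbtb9, which encodes a zinc finger and BTB domain protein. In all 3 groups the cells received 1 µM dexamethasone, 0.5 mM isobutylmethylxanthine and 167 nM insulin from day 0, insulin alone from day 3 and plain medium from day 7. The labels do not say whether day 0 cells were taken before or after the mix was added. Replicates are called biological in the labels, which do not say whether libraries of 1 shRNA came from separate transductions, so p-values measure the spread between these libraries.

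When amino acids run short, or when unfolded protein, viral RNA or lack of haem is sensed, kinases phosphorylate the translation factor eIF2 alpha, general translation falls and Atf4 protein is made more efficiently from its mRNA. Atf4 then pairs with C/EBP family factors and raises transcription of genes for amino acid synthesis, uptake and tRNA charging, together with genes that restrain growth or return translation to normal. RNA-seq measures the mRNA of these genes and not the amount or activity of Atf4 protein.

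By Ensembl ID, GENCODE M21 (GRCm38) places 3 of the 10 protein-coding genes on the plus strand, Atf4 (ENSMUSG00000042406) at chr15:80255184-80257541, Ddit3 (ENSMUSG00000025408) at chr10:127290774-127296288 and Chac1 (ENSMUSG00000027313) at chr2:119351229-119354381. On the minus strand lie Trib3 (ENSMUSG00000032715) at chr2:152337422-152344032, Sesn2 (ENSMUSG00000028893) at chr4:132492032-132510501, Asns (ENSMUSG00000029752) at chr6:7675169-7693254, Phgdh (ENSMUSG00000053398) at chr3:98313170-98339990. The others on that strand are Psat1 (ENSMUSG00000024640) at chr19:15904678-15947337, Shmt2 (ENSMUSG00000025403) at chr10:127517123-127522444 and Mthfd2 (ENSMUSG00000005667) at chr6:83305691-83325908.

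Promoters of the 10 genes were searched for the letters TGATGNAA on both strands, a form of the composite C/EBP-ATF element to which Atf4 binds with its partners. Windows of 300 bases, from 250 before to 50 after each start in RefSeq (GRCm38.p6), were available for all 10 genes, Psat1 having 2. A match was found for 3 of 10 genes, in 3 of 11 windows (27.3%), against 1304 of 32851 windows of the same length over all genes (3.97%). The 3 matched sites are printed 5′ to 3′ on the strand of the gene, with the match in capitals. They show the letters in which the sites of Chac1, Trib3 and Asns resemble each other, the first 2 being in the reverse orientation.
Chac1: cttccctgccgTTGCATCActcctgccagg
Trib3: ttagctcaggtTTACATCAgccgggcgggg
Asns: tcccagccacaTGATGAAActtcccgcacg
These stretches lie at chr2:119351038-119351067 (plus strand), chr2:152344028-152344057 (minus strand) and chr6:7693214-7693243 (minus strand). The match began at position -193 from the RefSeq start in Chac1, at 15 in Trib3 and at -23 in Asns. The GENCODE M21 starts differ. From these, at 152344032 and 7693254, the match of Trib3 lies before the start and that of Asns after it, inside the gene. The bases after the RefSeq start of Trib3 were not found in its GENCODE transcripts. A window with no match shows only that these letters are not in it, and binding was not measured.

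The targeted gene was read first. Zbtb9 had few reads, with control means of 14.2, 10.3, 16.8 and 15.5 normalized reads at days 0, 3, 7 and 11, of which the knockdown mean was 61.9%, 50.6%, 42.7% and 54.5%. The fall passed the test at day 7 (log2 difference -0.35, adjusted p = 0.0288 by limma), did not at day 0 (-0.21, adjusted p = 0.271) or day 11 (-0.28, adjusted p = 0.173), and the gene was under the filter at day 3. In GENCODE M21, 84.4% of its exon bases are shared with Ggnbp1 on the same strand. At day 3 the shRNA 1 libraries had 0 and 7.41 normalized reads and the shRNA 2 libraries 8.99 and 4.39, so that 2 of 4 lay within the control range of 6.35 to 12.6. At day 11 the shRNA 1 replicate 2 library, at 19.3, lay within the control range of 12.1 to 19.96. Libraries in the control range were left out by their Zbtb9 itself, so a lower percent was bound to follow and is not a better measure of the knockdown. Without them, the knockdown mean was 21.4% of control at day 3, from libraries at 0 and 4.39, and 31.2% at day 11. Counts for these 2 days are also given without the libraries in the control range. Depth ran from 22280321 to 31073716 reads in genes. It overlapped between the arms except at day 11, where controls had 26486034 to 31073716 and knockdown libraries 22839423 to 25511818.

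Fat cell genes moved with the knockdown, and their values belong beside every result below. The summed normalized reads of 10 adipocyte markers were 19721 to 20319 in controls and 21959 to 23559 in knockdown at day 0, 26456 to 31719 and 44295 to 59720 at day 3, 49534 to 54024 and 134627 to 203986 at day 7, and 56978 to 67190 and 117508 to 142722 at day 11. The arms did not overlap on any day. At day 0 the sum came almost wholly from Lpl, lipoprotein lipase, with means of 18692 normalized reads in controls and 21383 in knockdown, while Pparg (780 and 755) and Fabp4 (88.7 and 79.8) overlapped. Of the 9 markers tested, 1, 9, 9 and 8 were higher in knockdown at days 0, 3, 7 and 11, where 0.817%, 14.6%, 24.9% and 16.8% of all genes were higher, and Adipoq, the gene of adiponectin, differed by 1.93 on the log2 scale at day 7. Of 4 macrophage markers, Ptprc and Itgam averaged under 1 normalized read in controls on every day, and the list's sum of 271 to 710 came almost wholly from Cd14. This sum was 586 to 660 in controls and 456 to 552 in knockdown at day 0, and 628 to 710 and 455 to 612 at day 3. At day 7 it was 420 to 465 and 271 to 417, and the arms overlapped at day 11. The 5 endothelial markers summed to 8.78 to 92.5. They separated the arms only at day 0, with 54.7 to 70.8 in controls and 35.1 to 41.3 in knockdown. Of 4 preadipocyte markers, 1 was lower in knockdown at day 0, 1 higher and 1 lower at day 3, and 3 lower on each of days 7 and 11 (after rescaling the libraries to equal totals, 2 lower at day 3 and 4 at day 7). Of all genes tested, 2.44%, 12.1%, 22.6% and 16.2% were lower at days 0, 3, 7 and 11. The preadipocyte sum at day 0 was 242839 to 255594 in controls and 218465 to 231174 in knockdown. At day 7 it was 174855 to 198475 in controls and 145885 to 170629 in knockdown, and the arms overlapped at days 3 and 11. Of 6 cell cycle markers, 3 were higher at day 3 and 5 at day 7, while day 0 had no call and day 11 had 1 lower. Their day 3 sum was 16228 to 17994 in controls and 18200 to 19317 in knockdown. Their day 7 sum was 7405 to 8820 in controls and 9660 to 11673 in knockdown, and the arms overlapped at days 0 and 11. The part of fat cell differentiation and of the cell cycle in the results below was not tested, and in such bulk RNA fewer cells of a type and less RNA per cell cannot be told apart.

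In control cells the response rose by day 3, fell by day 7 and rose again by day 11, steps in which time of differentiation and the change of medium cannot be told apart. From day 0 to day 3, 9 of 10 genes rose and none fell, where 76.6% of 13421 genes tested changed and 38.3% rose. From day 3 to day 7, 9 fell and none rose, beside 74.2% changed and 36.6% lower over all genes. From day 7 to day 11, 8 rose and Mthfd2 fell, beside 55% of all genes tested that changed, 28.9% rising and 26.1% falling. A gene is said to change, rise or fall at an adjusted p under 0.05 in limma, whose linear model was fitted over all genes.

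Among the control changes, Mthfd2, the mitochondrial methylenetetrahydrofolate dehydrogenase, had the largest rise of the 10. It went from 11.26, 11.41, 11.43 and 11.54 (deposited log2 values) at day 0 to 13.42, 13.38, 13.38 and 13.39 at day 3, a difference of 1.98 ± 0.04 (SE, n = 4 and 4) or 3.95-fold. It then fell by 0.81 to day 7 and by 0.62 to day 11, and was the only gene of the 10 to fall at the last step. Atf4 itself rose by 1.00, fell by 1.12 and rose by 0.68. Its control levels were highest at day 3 (14.19 ± 0.04, SD, n = 4) and next at day 11 (13.75 ± 0.05), separate from each other and from day 0 (13.19 ± 0.09) and day 7 (13.07 ± 0.10), which overlapped.

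Chac1, which degrades glutathione, changed by 1.10, -1.27 and 1.20 in the same 3 steps. Trib3, a pseudokinase that is induced by Atf4 and damps its activity, changed by 0.96, -0.77 and 0.93. Ddit3, the gene of CHOP, differed by -0.02 ± 0.05 (SE) from day 0 to 3 and by 0.05 ± 0.05 from day 3 to 7, neither passing the test, and rose by 0.77 by day 11. Rescaling the libraries to equal totals shifted the median of all genes from day 0 to day 3 to -0.12, and Ddit3 then fell by 0.14 (adjusted p = 0.00988). Directions of the other 9 were the same in that setting.

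The synthesis enzymes peaked at day 3. Asns, asparagine synthetase, rose by 1.27 and fell by 1.18. Psat1 and Phgdh, which act early in serine synthesis, rose by 0.87 and 0.36 and fell by 0.75 and 0.90. Shmt2, the mitochondrial serine hydroxymethyltransferase, rose by 0.91 and fell by 0.99, and Sesn2, a leucine-binding inhibitor of mTORC1, rose by 0.55 and fell by 0.98. At the last step Psat1 differed by -0.03, which did not pass the test, while Asns (0.32), Phgdh (0.33), Shmt2 (0.39) and Sesn2 (0.48) rose, the Shmt2 call being lost in a fit of all 32 libraries (adjusted p = 0.119 by limma).

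Per kilobase of exon, Atf4 had the highest control level of the 10 on every day, 8007 ± 245 normalized reads per kb at day 3 (SD, n = 4), and Chac1 the lowest at days 0 and 7, at 548 ± 63 and 484 ± 60. Asns came after Atf4 at day 3 with 4496 ± 243, and Mthfd2 was next with 3155 ± 38. At day 11 Sesn2 was lowest, at 783 ± 40 normalized reads per kb.

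**Figure D1:**
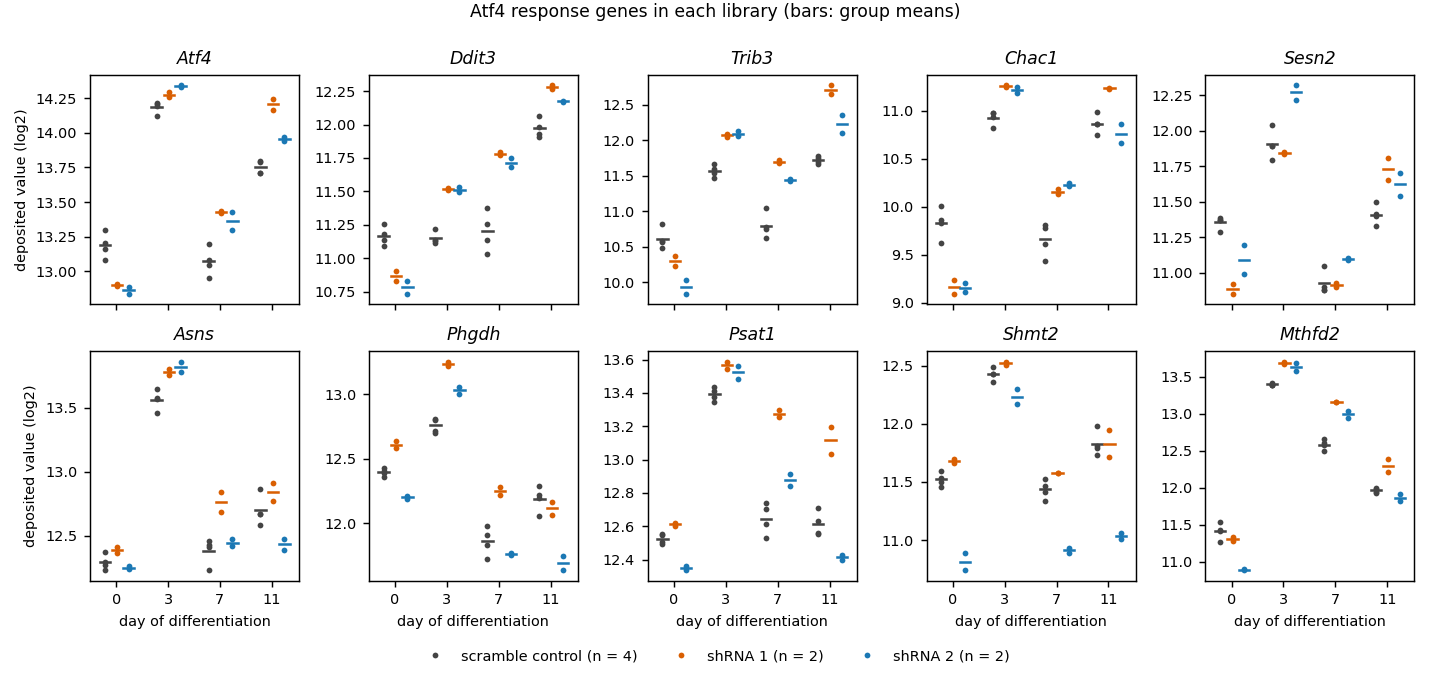
Deposited log2 value (y axis, own scale in each panel) of the 10 genes in each of the 32 libraries by day (x axis), with scramble control in grey, shRNA 1 in orange and shRNA 2 in blue, each point being a library and each bar a group mean. Atf4, Ddit3, Trib3 and Chac1 lie below all controls at day 0 and above all controls at days 3 and 7 with both shRNAs, while Shmt2 of shRNA 2 lies below all controls on each day.

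Under knockdown part of the response was lower at day 0 and most of it was higher at days 3 and 7. At day 0, 5 of 10 genes were lower and none higher, where 3.25% of 13216 genes changed, 2.44% being lower and 0.817% higher. Leaving out any 1 of the 4 day 0 controls left 3 of the 10 called, Trib3 and Sesn2 being lost, and took the genes called from 430 to between 111 and 157, and without shRNA 1 replicate 2 they numbered 250. At day 3, 8 were higher and none lower, where 26.7% of 13139 genes changed and 14.6% were higher. At day 7, 7 were higher and none lower (47.6% of 13299 genes changed, 24.9% higher and 22.6% lower), and at day 11, 4 were higher and none lower (33% of 13281 changed, 16.8% higher). The median log2 difference of the 10 genes was -0.31, 0.25, 0.38 and 0.14 at the 4 days, beside -0.01, 0.00, 0.01 and -0.01 over all genes tested. Without both day 3 libraries whose Zbtb9 was in the control range, an alternative chosen after the values were seen, 7 of 10 genes were called at day 3, all higher, beside 2267 of all genes. The call of Atf4 was then lost (adjusted p = 0.121 by limma). Without the day 11 library whose Zbtb9 was in the control range, the 4 calls at day 11 remained and 2 were added, since Phgdh (-0.37, adjusted p = 0.0119 by limma) and Shmt2 (-0.57, adjusted p = 0.0444) were then lower. Over the 8 fits of day 11 that each left out 1 library, 3200 to 4668 of all genes were called.

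Atf4 mRNA was lower at day 0 and higher later. At day 0 the controls stood at 13.08, 13.16, 13.20 and 13.30, the shRNA 1 libraries at 12.91 and 12.89 and the shRNA 2 libraries at 12.88 and 12.84. All 4 knockdown libraries were below all controls, with a difference of -0.31 ± 0.05 (SE, n = 4 and 4, adjusted p = 0.00822 by limma). At day 3 the controls were at 14.19, 14.22, 14.21 and 14.12 and the knockdown libraries at 14.29, 14.26, 14.35 and 14.33. The arms were separate but close, 0.12 ± 0.04 apart (adjusted p = 0.0394 by limma), and the call was lost on leaving out any single library but shRNA 1 replicate 2, with adjusted p from 0.051 to 0.141, in a fit of all 32 libraries (adjusted p = 0.12) and without the trend and robust options of limma (adjusted p = 0.0844).

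Later the gap in Atf4 was wider. Controls were at 13.05, 12.95, 13.20 and 13.08 at day 7, against 13.42 and 13.44 with shRNA 1 and 13.43 and 13.30 with shRNA 2. At day 11 controls were at 13.71, 13.79, 13.80 and 13.71, against 14.17 and 14.25 with shRNA 1 and 13.94 and 13.97 with shRNA 2. No knockdown library overlapped the controls, and the differences were 0.33 ± 0.06 (adjusted p = 0.000225) and 0.33 ± 0.07 (adjusted p = 0.00515), or 1.26-fold on both days, by limma.

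Ddit3, whose product CHOP is a partner and target of Atf4 that promotes cell death under lasting stress and restrains C/EBP factors, showed the same order of arms. Day 0 controls had 11.09, 11.14, 11.18 and 11.26, shRNA 1 had 10.90 and 10.83, and shRNA 2 had 10.83 and 10.73. At day 7 controls had 11.14, 11.03, 11.38 and 11.26, shRNA 1 had 11.79 and 11.77, and shRNA 2 had 11.68 and 11.75. The arms did not overlap on any of the 4 days. By limma the difference was -0.34 ± 0.05 at day 0 with an adjusted p of 0.00656 and 0.36 ± 0.04 at day 3 with an adjusted p of 3.27e-05. It was 0.55 ± 0.07 at day 7 (adjusted p = 6.06e-06) and, in the last libraries, 0.26 ± 0.05 (adjusted p = 0.00329). While the control change from day 0 to day 3 did not pass the test, knockdown means went from 1780 ± 89 to 2930 ± 33 normalized reads (SD, n = 4). In GENCODE M21, 6.13% of Ddit3 exon bases are shared with another gene model of the same name and 4.73% with genes on the other strand.

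Trib3 had the largest difference of the 10 genes at days 3, 7 and 11. Its controls at day 7 were 10.75, 10.61, 11.04 and 10.77, against 11.72 and 11.67 with shRNA 1 and 11.45 and 11.42 with shRNA 2. At day 11 they were 11.66, 11.75, 11.78 and 11.69, against 12.65 and 12.78 with shRNA 1 and 12.10 and 12.36 with shRNA 2. All knockdown libraries were above all controls on both days, by 0.77 ± 0.09 (1.71-fold, adjusted p = 1.4e-05) and 0.75 ± 0.13 (1.68-fold, adjusted p = 0.00186) by limma. At day 3 the difference was 0.51 ± 0.05 (adjusted p = 5.42e-06 by limma). At day 0 Trib3 was lower, at 10.22 and 10.36 with shRNA 1 and 10.02 and 9.84 with shRNA 2 against 10.48, 10.56, 10.58 and 10.81. That difference of -0.50 ± 0.11 (adjusted p = 0.0391) lost its call without shRNA 1 replicate 1, shRNA 2 replicate 1 or any 1 of the 4 controls, with adjusted p by limma from 0.0619 to 0.11. With all libraries kept it was also lost without the filter on low values (adjusted p = 0.0742) and without the trend and robust options (adjusted p = 0.0727) of limma.

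Chac1 had the largest fall of the 10 at day 0. Controls were at 9.62, 9.86, 9.83 and 10.01, shRNA 1 at 9.24 and 9.09, and shRNA 2 at 9.20 and 9.11. Both shRNAs stood at nearly the same level, 0.66 and 0.67 below the control mean, and the joint difference was -0.67 ± 0.08 (0.629-fold, adjusted p = 0.00211 by limma). Knockdown was higher by 0.31 ± 0.05 at day 3 (limma, adjusted p = 0.000322) and, with no overlap either, by 0.54 ± 0.08 at day 7 (limma, adjusted p = 3.66e-05). At day 11 the shRNAs parted, with 11.23 in both libraries of shRNA 1 and 10.67 and 10.86 with shRNA 2, around controls of 10.74, 10.86, 10.98 and 10.86, and the joint difference of 0.14 ± 0.12 did not pass the test (adjusted p = 0.437 by limma).

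Sesn2 was lower at day 0 and higher at day 11. Its day 0 values were 11.29, 11.39, 11.37 and 11.37 in controls, 10.92 and 10.85 with shRNA 1 and 11.19 and 10.99 with shRNA 2, a difference of -0.37 ± 0.07 (adjusted p = 0.0174 by limma). Leaving out any 1 of the 4 controls ended that call, with adjusted p from 0.0506 to 0.0763. At day 11 controls had 11.41, 11.40, 11.50 and 11.33, against 11.66 and 11.81 with shRNA 1 and 11.54 and 11.70 with shRNA 2, and the arms were separate by 0.27 ± 0.06 (adjusted p = 0.00688 by limma). The differences of 0.15 ± 0.12 at day 3 and 0.08 ± 0.06 at day 7 did not pass the test. With the shRNAs as separate groups, which leaves their difference out of the spread, that of day 3 passed (adjusted p = 0.00322 by limma).

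Asns, which makes asparagine from aspartate and glutamine, was not distinguishable between the arms at day 0 (0.03 ± 0.05, adjusted p = 0.813 by limma). At day 3 it was higher in all knockdown libraries, 13.76 to 13.86 against 13.46 to 13.64, by 0.24 ± 0.05 (adjusted p = 0.00159 by limma). At day 7 shRNA 1 had 12.68 and 12.84 and shRNA 2 had 12.47 and 12.42, against 12.42, 12.24, 12.46 and 12.41 in controls. Only shRNA 1 stood clear of the controls there, and the joint difference of 0.22 ± 0.09 (adjusted p = 0.0456 by limma) lost its call after rescaling to equal totals (adjusted p = 0.0662), without the filter (adjusted p = 0.0745), without the trend and robust options (adjusted p = 0.0895) and without either shRNA 1 library or any 1 of the controls (adjusted p from 0.0581 to 0.132). At day 11 the difference was -0.06 ± 0.11.

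Serine synthesis begins with Phgdh, and Psat1 carries out the next step. Psat1 was higher by 0.15 ± 0.04 at day 3 (limma, adjusted p = 0.0138), a call lost without control replicate 4 (adjusted p = 0.058) and in a fit of all 32 libraries (adjusted p = 0.404). It was higher by 0.43 ± 0.10 at day 7 (limma, adjusted p = 0.00409). Its day 7 values were 12.62, 12.53, 12.70 and 12.74 in controls, 13.25 and 13.30 with shRNA 1 and 12.91 and 12.84 with shRNA 2, so that both shRNAs were above all controls. By day 11 they lay on opposite sides of the controls (12.56, 12.63, 12.71 and 12.55), with 13.03 and 13.20 for shRNA 1 and 12.43 and 12.40 for shRNA 2. Phgdh was higher at day 3 by 0.37 ± 0.06 (adjusted p = 0.000261 by limma), with 13.22 and 13.25 for shRNA 1, 13.00 and 13.05 for shRNA 2 and 12.70 to 12.81 in controls. Its differences of 0.01, 0.14 and -0.29 at days 0, 7 and 11 did not pass the test. Those of days 7 and 11 passed by limma with the shRNAs as separate groups (adjusted p = 0.0115 and 0.00019).

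Counts of Phgdh carry an added uncertainty. In GENCODE M21, 19 other genes align to its transcripts at 90% identity or more over at least 200 bases, and 9 of them are in the deposited table. Their reads came to 6.89% to 10.2% of those of Phgdh, depending on the library, and how reads matching several copies were counted is not given in the sources used here.

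In the mitochondrial one-carbon pathway, Shmt2 passes a carbon unit from serine to folate and Mthfd2 oxidises the product. Mthfd2 was higher by 0.27 ± 0.04 at day 3 (limma, adjusted p = 0.000346) and by 0.49 ± 0.06, or 1.41-fold, at day 7 (limma, adjusted p = 4.75e-06). Its day 7 values were 13.15 and 13.16 with shRNA 1, 13.04 and 12.94 with shRNA 2, and 12.66, 12.49, 12.57 and 12.61 in controls, with no overlap. Neither the day 0 difference (-0.31 ± 0.11, adjusted p = 0.162) nor that of day 11 (0.12 ± 0.11, adjusted p = 0.436) passed the limma test. With the shRNAs as separate groups both passed by limma (adjusted p = 1.54e-05 at day 0 and 0.0426 at day 11).

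Shmt2 was the exception among the 10, since the joint knockdown arm passed the test on none of the 4 days (-0.28, -0.05, -0.19 and -0.40, adjusted p from 0.206 to 0.645 by limma) while the shRNAs differed on all of them. At day 0 shRNA 1 had 11.66 and 11.69, shRNA 2 had 10.89 and 10.74, and controls had 11.46, 11.54, 11.50 and 11.60. At day 11 shRNA 1 had 11.71 and 11.95, shRNA 2 had 11.06 and 11.01, and controls had 11.79, 11.81, 11.98 and 11.73. Every shRNA 2 library was below every control of its day, while shRNA 1 was above them at days 0, 3 and 7 and overlapped them at day 11. With the shRNAs as separate groups in the fit, which leaves their difference out of the spread, the mean of both was lower than control on 3 days at the same differences. By limma the adjusted p was then 1.5e-06 for day 0, 0.000755 for day 7 and 4.01e-05 for day 11.

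**Figure D2:**
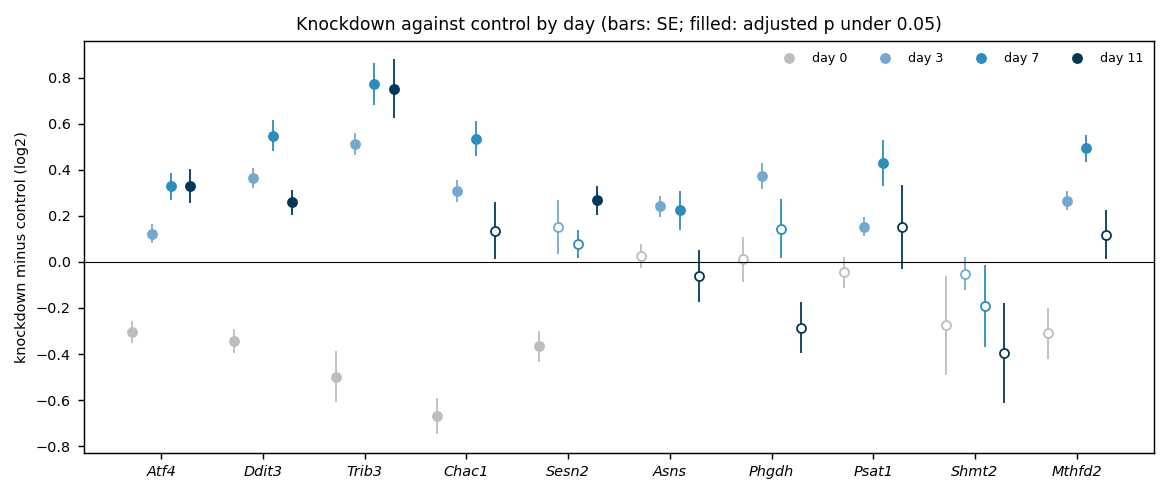
Knockdown minus control (y axis, log2 difference from limma, 4 against 4 libraries) for each of the 10 genes (x axis), in 4 shades for days 0, 3, 7 and 11, with bars of 1 SE and filled points for an adjusted p under 0.05. The 5 filled points below 0 are Atf4, Ddit3, Trib3, Chac1 and Sesn2 at day 0, and every filled point of a later day is above 0, up to 0.77 for Trib3 at day 7.

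The change of the knockdown effect since day 0 was tested as a term of its own in a fit of all 32 libraries. At day 3 the effect was higher than at day 0 in 6 of 10 genes (6.57% of 13571 genes changed, 3.69% in the higher and 2.88% in the lower direction), at day 7 in 7 (29.9%, 16.8% higher) and at day 11 in 6 (23.2%, 12.4% higher), and it was lower in none. Separate groups for the shRNAs leave their difference out of the spread, and more genes are then called. In that fit all 10 were higher at day 3, beside 2484 of the 13571 genes called, against 892 with 1 arm. Asns was also higher at day 7, where settings that kept each library called up to 5706 genes. At day 11, beside 4865 genes called, Psat1 was also higher (0.20, adjusted p = 0.00557 by limma) and Phgdh lower (-0.30, adjusted p = 0.000135 by limma). For Trib3 the effect rose by 1.01 ± 0.16 to day 3, 1.27 ± 0.16 to day 7 and 1.25 ± 0.16 to day 11 (SE). The gene with the next largest values, Chac1, had 0.98 ± 0.13, 1.20 ± 0.13 and 0.80 ± 0.13. Asns, Phgdh and Shmt2 passed at no day with the shRNAs as 1 arm. The Mthfd2 call at day 11 was lost in a fit of the 16 libraries of both days (adjusted p = 0.087 by limma). These 3 tests share the day 0 libraries. The call for Psat1 at day 7 (0.47 ± 0.17, adjusted p = 0.0396 by limma) was lost after rescaling to equal totals (adjusted p = 0.0691), without the filter (adjusted p = 0.0602) and on leaving out any of 10 single libraries of the 16 of those days (adjusted p up to 0.0967).

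The shRNAs were also compared with each other, and most of the called differences were in the synthesis enzymes. Called differences of shRNA 2 against shRNA 1 numbered 7 of 10 at day 0 (35% of genes tested changed), 3 at day 3 (19.6%), 4 at day 7 (16.4%) and 8 at day 11 (22%). Lower with shRNA 2 were 6, 2, 4 and 8 of these, beside 16.4%, 8.94%, 8.9% and 10.4% of all genes. Higher with shRNA 2 was Sesn2, at day 0 (0.21) and day 3 (0.43 ± 0.06, adjusted p = 9.17e-07 by limma), beside 18.6% and 10.6% of all genes, and none of the 10 was higher at day 7 (7.52%) or day 11 (11.6%). At day 7 Sesn2 differed by 0.18 (adjusted p = 0.0592 by limma) and was called higher after rescaling to equal totals (0.22, adjusted p = 0.0159), in a fit of the 4 knockdown libraries only (adjusted p = 0.0477) and without control replicate 3 (adjusted p = 0.0353). Without shRNA 1 replicate 2 the count at day 0 was 4 of 10.

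Markers of other states also differed between the shRNAs. Of 6 cell cycle markers, 6 were lower with shRNA 2 at day 0 (median log2 difference -0.94), 1 was higher and 2 lower at day 3 (-0.07), none was called at day 7 (0.18) and 5 were lower at day 11 (-0.71). Their summed normalized reads at day 0 were 15575 to 15925 with shRNA 1 and 8600 to 8746 with shRNA 2, on either side of the controls at 9817 to 10560. At day 11 they were 4223 to 4507 and 3154 to 3316, against 4375 to 4616 in controls. Of 9 adipocyte markers, 2 were lower with shRNA 2 at day 0, 3 were higher at day 3, 1 was higher and 6 lower at day 7 (-0.40), and 2 were higher and 1 lower at day 11. The part of these markers in the differences between the shRNAs was not tested.

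Shmt2 had the largest gap between the shRNAs at days 0, 7 and 11. Its differences were -0.87 ± 0.05, -0.29 ± 0.05, -0.67 ± 0.06 and -0.79 ± 0.08 at days 0, 3, 7 and 11 (SE, n = 2 and 2), with adjusted p from 9.81e-14 to 4.53e-05 by limma. Phgdh was also lower with shRNA 2 on all 4 days, by -0.41, -0.21, -0.49 and -0.43, the day 3 call being lost without the trend and robust options of limma (adjusted p = 0.0685). Psat1 was lower at days 0, 7 and 11, by -0.26, -0.40 and -0.70, and Asns at the same days by -0.14, -0.32 and -0.41. The Asns call at day 0 ended by limma without the filter (adjusted p = 0.0593), without the trend and robust options (adjusted p = 0.112), in a fit of all 32 libraries (adjusted p = 0.163) and on leaving out shRNA 1 replicate 2 or either shRNA 2 library (adjusted p from 0.055 to 0.143). That at day 7 ended without the trend and robust options (adjusted p = 0.0694) and on leaving out shRNA 1 replicate 2 (adjusted p = 0.077) by limma. Mthfd2 was lower by -0.41 at day 0 and -0.43 at day 11.

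Among the regulators, Ddit3 passed this test on no day and Atf4 and Chac1 only at day 11 (-0.25 and -0.47). This Atf4 call ended without shRNA 1 replicate 2 (adjusted p = 0.0696) or shRNA 2 replicate 1 (adjusted p = 0.0686) by limma. Trib3 was lower with shRNA 2 at day 0 (-0.36) and day 11 (-0.48), and the former call ended without shRNA 1 replicate 2 (adjusted p = 0.118) or shRNA 2 replicate 2 (adjusted p = 0.112) and without the trend and robust options (adjusted p = 0.054) by limma. At day 7 Trib3 differed by -0.26 (adjusted p = 0.0798 by limma) with no overlap of the libraries, and was called lower in a fit of the 4 knockdown libraries only (adjusted p = 0.00465) and without control replicate 2 (adjusted p = 0.0238) or 3 (adjusted p = 0.00443). That of Sesn2 at day 0 ended without shRNA 1 replicate 2 (adjusted p = 0.0724) or shRNA 2 replicate 1 (adjusted p = 0.237) and without the trend and robust options (adjusted p = 0.0735) by limma.

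Set against the controls, with no test, the libraries of shRNA 1 were all above the 4 controls in 3, 9, 9 and 7 of the 10 genes at days 0, 3, 7 and 11, and all below in 5 at day 0 and in none later. Those of shRNA 2 were all above in 9, 7 and 4 genes at days 3, 7 and 11, and all below in 9, 1, 1 and 5 genes in the order of the 4 days. The share of all genes in such positions was not taken. These counts for either shRNA therefore have no background and only describe where the libraries of the 10 genes lay. At day 11 Atf4, Ddit3, Trib3 and Sesn2 were above all controls with either shRNA, and Asns, Phgdh, Psat1, Shmt2 and Mthfd2 below all controls with shRNA 2.

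**Figure D3:**
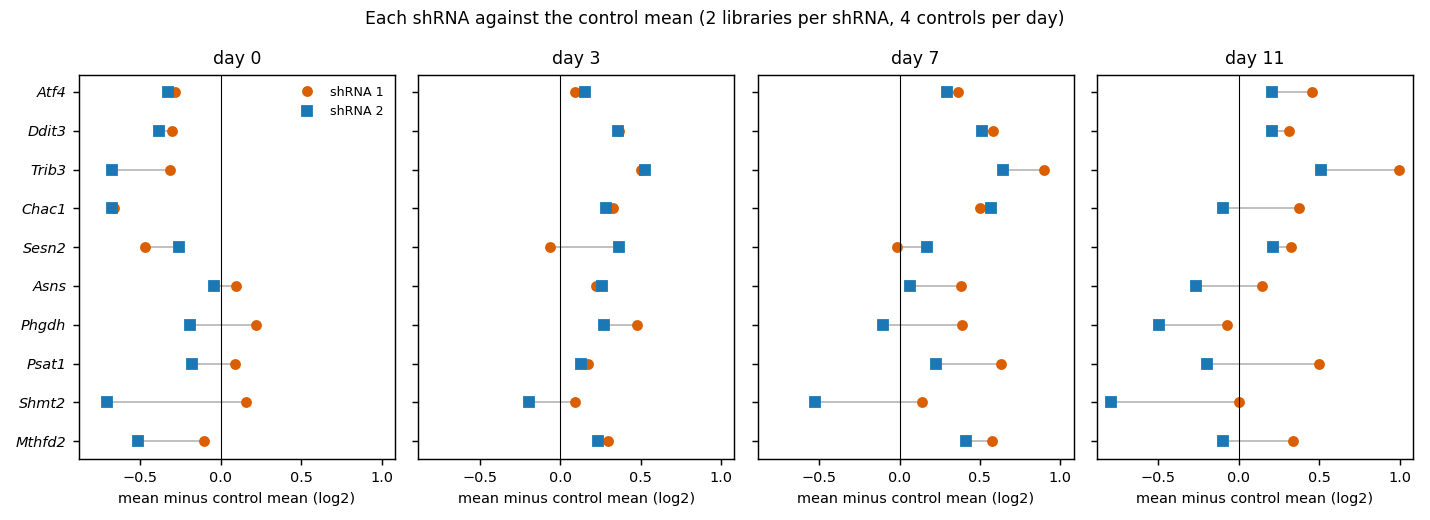
Mean of each shRNA minus the control mean of the day (x axis, log2) for the 10 genes (y axis) in 1 panel per day, with circles for shRNA 1, squares for shRNA 2 (2 libraries each) and a grey line joining them. At day 3 the symbols lie close together for most genes, and at day 11 Shmt2 is 0.79 below control with shRNA 2 while Trib3 is 0.99 above it with shRNA 1.

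Other genes of the pathway were followed as 9 lists, whose counts stand beside the shares of all genes called in knockdown, 0.817% higher and 2.44% lower at day 0, 14.6% and 12.1% at day 3, 24.9% and 22.6% at day 7, and 16.8% and 16.2% at day 11. Of 8 genes for the eIF2 alpha kinases and phosphatase, 1 was lower at day 0, 4 were higher at day 3, 4 higher and 2 lower at day 7, and 3 higher and 2 lower at day 11. Ppp1r15a, the Atf4-induced subunit that lets eIF2 alpha be dephosphorylated, had differences of -0.40, 0.41, 0.61 and 0.96 at the 4 days and changed on each, the day 0 call being lost after rescaling to equal totals. Eif2ak2, the kinase that senses double-stranded RNA, was lower by -0.70 at day 7 and -0.75 at day 11. Of 7 tested Atf4 partners and related factors, 2 were higher at day 3, 1 was higher and 1 lower at day 7, and 4 were higher and 1 lower at day 11. Cebpg, a C/EBP partner of Atf4, was higher by 0.36, 0.79 and 0.42 at days 3, 7 and 11, and Atf3, a factor induced by Atf4, was lower by -0.49 at day 0, a call also lost after rescaling, and higher by 0.85 at day 3.

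Of 13 tested other Atf4 targets, 2 were lower at day 0, 5 were higher and 2 lower at day 3, 9 higher and 3 lower at day 7, and 6 higher and 2 lower at day 11, where 14.6%, 24.9% and 16.8% of all genes were higher on the last 3 days. Ero1a, an oxidase of the endoplasmic reticulum, was higher by 0.90, 1.23 and 1.47 at days 3, 7 and 11, Ddit4, an mTORC1 inhibitor, by 0.49 and 0.85 at days 3 and 7, and Gdf15, a secreted stress factor, by 0.51 and 0.94 at days 7 and 11. Of 12 amino acid transporters, 6 were higher and 1 lower at day 3, 8 and 1 at day 7, and 6 and 2 at day 11. Slc7a5, which carries large neutral amino acids, was higher by 0.58 at day 3 and 1.29 at day 7, while Slc7a11, the cystine carrier and itself an Atf4 target, was lower on each of days 3, 7 and 11, by -0.38, -0.48 and -1.25. Of 20 cytosolic aminoacyl-tRNA synthetases, 14 were higher and 1 lower at day 3, beside 14.6% and 12.1% of all genes. At day 7, 5 were higher, a share near the 24.9% of all genes. None was called by limma at day 0 or day 11, where 2 had an unadjusted p under 0.05 on either day and voom called none (after rescaling to equal totals 1 was lower at day 11).

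Serine, glycine and folate enzymes outside the 10 genes numbered 12, of which 4 were higher at day 3 (14.6% of all genes), 2 higher and 2 lower at day 7 (24.9% and 22.6%), and 1 higher and 3 lower at day 11 (16.8% and 16.2%). Psph, the last enzyme of serine synthesis, was higher by 0.39 and 0.58 at days 3 and 7. Of 8 genes for proline and other amino acid synthesis, 4 were higher at day 3, 5 higher and 1 lower at day 7, and 1 higher at day 11, with Glul, glutamine synthetase, at 0.58. Among 7 mitochondrial stress genes 5, 6 and 3 were higher at days 3, 7 and 11, with the chaperonin gene Hspd1 at 0.84 at day 7. Of 15 genes for endoplasmic reticulum chaperones and targets of Xbp1 or Atf6, 6 were higher at day 3, 7 higher and 2 lower at day 7, and 9 higher and 1 lower at day 11, and Xbp1 was at 0.54, 1.16 and 1.10. After rescaling to equal totals that last count was 6 higher and 1 lower, 3 rather than 5 amino acid synthesis genes were higher at day 7, and 3 rather than 1 of the Atf4 partners were lower at day 7.

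**Figure D4:**
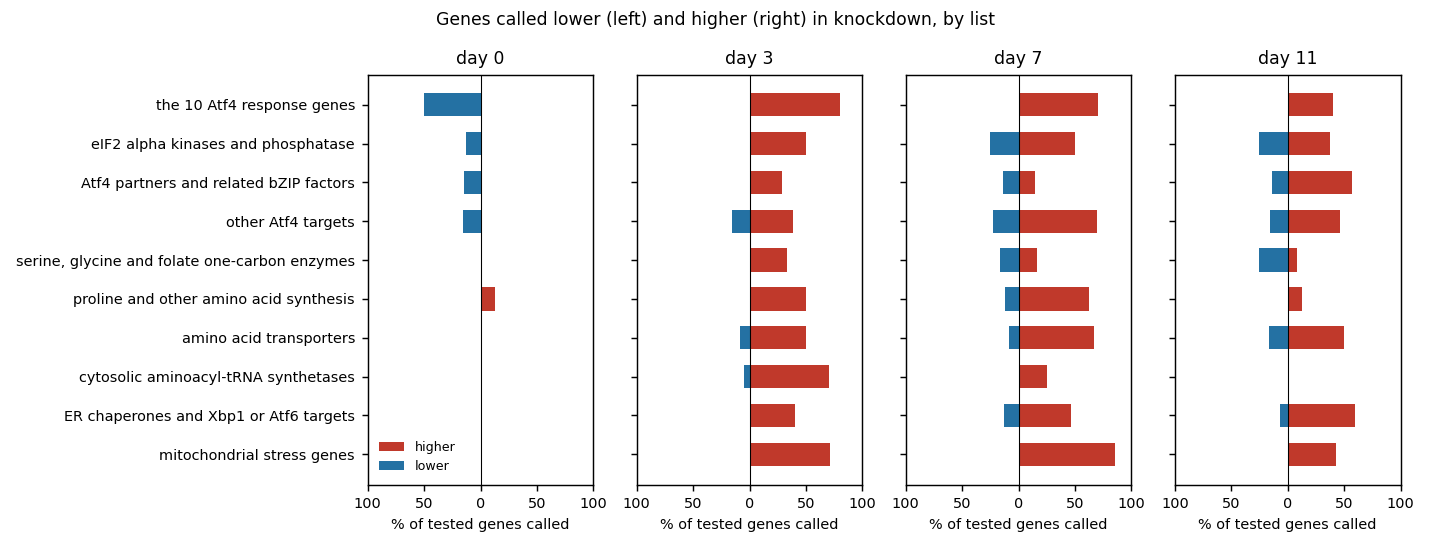
Percent of the tested genes of each list (y axis) called lower (blue, left) or higher (red, right) in knockdown (x axis, percent), in 1 panel per day. The 10 Atf4 response genes turn from lower calls only at day 0 to higher calls only at days 3, 7 and 11, and the aminoacyl-tRNA synthetases have calls at days 3 and 7 and none at days 0 and 11.

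As a description with no test, the 10 genes were correlated with each other over the 12 group means (3 groups by 4 days), which share the effect of day. Over 45 pairs Pearson's r ran from -0.34 to 0.98 with a median of 0.67, and 34 pairs were over 0.5. Atf4 and Chac1 were the most alike (0.98), and Ddit3 and Phgdh the least (-0.34). Over the deviations of the 32 libraries from their group means, where depth and handling of a library are shared by all genes, r ran from 0.32 to 0.86 with a median of 0.56. Among 11922 genes outside the lists, the group means most like the mean profile of the 10 belonged to Ipo5 (r = 0.977), Armc8 (0.976), Timm10 (0.975), Rnd1 (0.975) and Eif6 (0.971). Each of the 10 is itself part of that mean profile, which raises its r, so these values cannot be set beside those of the genes outside. Within the 10, Atf4 came closest to the mean profile (0.956) and Ddit3 (0.497) and Phgdh (0.55) were farthest from it.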

How the data were processed

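RNA of 32 libraries was made with a TruSeq RNA kit, per the labels' protocols. The submitters' processing notes name TopHat2 2.1.0, Bowtie2 2.2.6, SAMtools 1.3.1 and HTSeq 0.6.1 without their roles; build, annotation and strand use are not given in the sources used here. The deposited table holds log2 values, although its name calls them normalized counts. Their form is that of a regularized log, which draws values of genes with few reads towards the gene's mean and so understates their differences. Inverting it gave whole reads (within 0.1) for 99.2% of values of the 13571 genes in the filter (20% by chance) and for 295 of 320 values of the 10 genes. These rebuilt reads give the depths and the normalized reads printed, and without molecular identifiers they need not be independent molecules.

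limma 3.58.1 (R 4.3.3, trend and robust empirical Bayes) was fitted to the deposited log2 values, with Benjamini-Hochberg adjustment over all genes tested. A gene was tested where its value, taken off the log2 scale, reached 10 or more in 4 or more libraries of a fit, and all 10 genes passed in every fit. Knockdown (both shRNAs as 1 arm) was compared with control per day. For the shRNAs each day had a fit with 3 groups. Control days were compared in a fit of 16 libraries and effects between days in a fit of 32. The fits were tested on simulated data. Groups and replicate numbers came from the titles, and no batch is labelled. All 32 pairs of replicates differed by more than sampling noise (chi-square over degrees of freedom 3.00 to 11.8).

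The 10 genes and the lists were chosen with earlier results of these data known. Genes named are the 10, Zbtb9, up to 3 per list with the largest called knockdown difference, and the 5 most like the mean profile. Lpl, Pparg, Fabp4, Ptprc and Itgam were chosen after their values were seen. Ero1l was matched as Ero1a and Mars as Mars1, and Adgre1 was not matched. Positions are from GENCODE M21 (GRCm38), where 20521 IDs matched, and sequences from RefSeq. Copies were found with BLAST 2.17.0. Alternatives were other filters, scalings, fits, limma's voom on rebuilt reads, log2 of rebuilt reads plus 1, and leaving out each library.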

Additional observations from a re-analysis of the deposited data

Results flagged for a closer look

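The effect of knockdown differed from that at day 0 in the test of the difference itself (limma, adjusted p under 0.05) for the following genes. At day 3 minus day 0 the log2 difference of effects was 0.43 for Atf4, 0.71 for Ddit3, 1.01 for Trib3, 0.98 for Chac1, 0.58 for Mthfd2 and 0.52 for Sesn2. At day 7 it was 0.63 for Atf4, 0.89 for Ddit3, 1.27 for Trib3, 1.20 for Chac1, 0.47 for Psat1, 0.80 for Mthfd2 and 0.44 for Sesn2, the Psat1 call being lost without the filter on low values (adjusted p = 0.0602), after rescaling to equal totals (adjusted p = 0.0691) and on leaving out any of 10 single libraries (adjusted p up to 0.0967). At day 11 it was 0.64 for Atf4, 0.60 for Ddit3, 1.25 for Trib3, 0.80 for Chac1, 0.43 for Mthfd2 and 0.63 for Sesn2, the Mthfd2 call being lost in a fit of the 16 libraries of both days (adjusted p = 0.087). The adipocyte marker sums also separated the arms by day, and their part in these differences was not tested.

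In 2 of 40 control groups, both of Sesn2, a library stood apart from the other 3, where chance flags about 1 in 20 groups. The lowest day 0 control was at 11.29 against 11.37 to 11.39 (gap over range 0.841). The highest day 7 control was at 11.05 against 10.88 to 10.90 (gap over range 0.879).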

How the results depend on the processing

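Of 3350 alternative values for 140 single-gene results of the 10 genes, 3222 kept direction and side of the threshold, 78 lost the call, 28 gained one and 22 reversed. Control time course counts stayed at 8 to 10 of 10 genes in all alternatives run. The lone library left by leaving out 1 of 2 of an shRNA was assumed to vary like the other groups.

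Not every pair of same-numbered libraries deviated together (controls of other days, r from -0.09 to 0.12 over 24 pairs; other arm of the same day, -0.01 to 0.21, the 3 values over 0.1 all at day 11), so the numbers were not taken to pair them. With the replicate block the counts for knockdown against control were 0 of 10 genes and 0 of all genes at day 0 by limma (5 and 1067 at an unadjusted p under 0.05, and 0 and 0 by voom), 4 and 845 at day 3, 4112 of all genes at day 7, and 1 and 1652 at day 11, and 7 of 10 genes differed between the shRNAs at day 7. In the fits of knockdown against control, control replicates 3 and 4 share their number with no knockdown library, and the block takes them up. The knockdown was then compared with control replicates 1 and 2 only, so these counts do not come from the same comparison. For Atf4 at day 0 the difference was -0.24 with the block and -0.31 without it. The block also leaves few degrees of freedom.

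With the shRNAs as separate groups, 3340 genes were called at day 0, 5311 at day 3, and 8 of the 10 at day 11. Of the calls added at day 11, Psat1 (0.15) and Mthfd2 (0.12) were higher and Phgdh (-0.29) and Shmt2 (-0.40) lower. Settings that kept each library or chose by Zbtb9 called at most 6129 of all genes at day 11. With separate groups the effect differed from day 0 in 10 of 10 and 2484 of all genes at day 3 and in 4865 genes at day 11. Without trend and robust fit, 261 genes were called at day 0, and between the shRNAs 4 of 10 genes at day 0, 1454 of all genes at day 3 and 1035 at day 7. Without the filter, 1710 genes differed between the shRNAs at day 3, and in a fit of the 4 knockdown libraries only, 1868 at day 11. In a fit of the 16 libraries of both days, the difference of the Mthfd2 effect at day 11 had an adjusted p of 0.087 by limma. Without the 2 day 3 libraries whose Zbtb9 was in the control range, chosen after seeing the data, 2267 genes were called at day 3 with fewer libraries. The cause of the other changes was not tested.

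Leaving out each library in turn gave 3 to 5 of 10 genes and 111 to 562 of all genes for knockdown at day 0. Between the shRNAs it gave 4 to 7 of 10 genes at day 0, and of all genes 1633 to 2592 at day 3, 1003 to 2385 at day 7 and 1479 to 2928 at day 11, falling by over 1.5 times without shRNA 1 replicate 1 or 2 or shRNA 2 replicate 2 at day 3, shRNA 1 replicate 1 or 2 or shRNA 2 replicate 1 at day 7, and shRNA 1 replicate 2 or shRNA 2 replicate 1 at day 11. The 22 reversals came from leaving out 1 library and from 12 differences that had not passed the test. For knockdown their ranges were -0.0047 to 0.053 (Asns), -0.092 to 0.0027 (Psat1) and -0.065 to 0.084 (Phgdh) at day 0, -0.10 to 0.019 (Shmt2) at day 3 and -0.15 to 0.021 (Asns) at day 11. Between the shRNAs they were -0.083 to 0.061 (Chac1) at day 0, and -0.022 to 0.012 (Ddit3) and -0.015 to 0.067 (Trib3) at day 3. For control Ddit3 they were -0.041 to 0.015 from day 0 to 3 and -0.0095 to 0.11 from day 3 to 7, and for the difference of the Shmt2 effect from day 0 they were -0.085 to 0.23 at day 7 and -0.29 to 0.028 at day 11.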
